A study of Homo sapiens with 9 samples.

Results

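The mRNAs of 8 cholesterol synthesis enzymes were examined for cross-links to MDH2, the mitochondrial malate dehydrogenase, in an eCLIP data set from Huh7 cells. All exon and intron windows of HMGCS1, FDPS, FDFT1, SQLE, LSS, CYP51A1, TM7SF2 and DHCR7 were taken, which are 8 of the 35309 identifiers with counts and hold 1329 exon windows and 4735 intron windows. Huh7 is a human hepatoma line, and eCLIP maps where an immunopurified protein was joined to RNA by UV light. All libraries came from UV-exposed Huh7 cells with no other treatment named: 3 replicates of the MDH2 immunoprecipitation (IP), 3 of the size-matched input (SMI), which is lysate cut from the same range of the gel without an IP, and 3 of an IP with control IgG. The labels do not say whether replicates came from separate cultures, so that p-values measure the spread between these libraries, which may be technical. The IP libraries had 14 PCR cycles and the SMI libraries 9, so that an IP and its amplification cannot be told apart in a comparison with the SMI.

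Liver cells make cholesterol from acetyl-CoA in a chain of enzymes that begins in the cytosol and continues at the endoplasmic reticulum. HMGCS1 condenses acetyl-CoA units to HMG-CoA, FDPS builds farnesyl diphosphate, FDFT1 joins farnesyl units to squalene, SQLE and LSS turn squalene into lanosterol, and CYP51A1, TM7SF2 and DHCR7 trim lanosterol towards cholesterol. Their genes are classical targets of the SREBP transcription factors, which are held back when sterols are plentiful. MDH2 itself acts in the tricarboxylic acid cycle and is not a member of this pathway.

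The results turn on 3 short stretches of these RNAs, printed 5′ to 3′ as DNA letters from GRCh38.
TM7SF2 exon 1, chr11:65111865-65111894, plus strand: GGTCCTTGTCTGCGTTCCGTgtccaggcag
HMGCS1 exon 12, chr5:43291055-43291084, minus strand: GGGGGTATGGgaacagttggaggaatggga
FDPS intron 6, chr1:155319929-155319958, plus strand: GTgcctgagagagggtggtgggtccctgag
The TM7SF2 stretch lies in the windows with the highest ratios of MDH2 IP to SMI among the tested windows of the 8 mRNAs. Its capitals are the 20 bases that windows 1 and 2 of the exon share and window 3 does not, and they span the start of the MANE Select transcript at base 65111872, ahead of the coding sequence, which begins at base 65112016. The HMGCS1 stretch is common to windows 83 and 84, which had the most IgG IP counts of the 8 mRNAs, and lies in the 3′ UTR, downstream of the last coding base before the stop codon, 43291134. It has 16 G among its 30 bases, and its capitals are the 10 bases that window 85 also holds. The FDPS stretch opens window 558, an intron window enriched in the MDH2 IP, and its capitals are the GT of the 5′ splice site that follows an exon of the MANE Select transcript.

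Window counts summed to between 5899998 and 9482501 in the MDH2 IP, between 8311118 and 9788565 in the SMI and between 1631267 and 2942816 in the IgG IP, so that values of the IgG IP rest on the fewest counts. Replicates correlated across genes at 0.933 to 0.966 in the MDH2 IP, 0.939 to 0.965 in the SMI and 0.793 to 0.840 in the IgG IP (Pearson, log2 CPM of exon sums). The 7 liver markers ALB, APOA1, APOA2, TTR, SERPINA1, AFP and FGB summed to between 1224 and 2531 CPM in exons over the 9 libraries. HBB was at 0 counts, and markers of blood, fibroblasts and endothelium summed to at most 4.56 CPM per cell type and library. CPM are window counts per 1e6 of a library's total after TMM scaling, and they serve to compare libraries, not genes, since they are not divided by length.

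The exon counts of the members were not raised as a group in the MDH2 IP. Between the MDH2 IP and the SMI, 2 of the 8 rose, 1 fell and 5 did not pass the test. TM7SF2, a sterol reductase, had 19.1, 30.2 and 23.7 exon CPM in the MDH2 IP and 13.3, 12.3 and 5.09 in the SMI. All 3 MDH2 IP libraries were higher, with a log2 fold change of 1.25 ± 0.33 (SE, n = 3 and 3, edgeR adjusted p = 0.0280). LSS, the cyclase that makes lanosterol, had 30.9, 22.3 and 23.7 CPM in the MDH2 IP against 16.9, 14.8 and 16.8 in the SMI. Here too the groups did not overlap (0.67 ± 0.19, adjusted p = 0.0342). Of the 21 LSS exons only exons 1 to 4 were analysed, so that its sums cover the 5′ part of the mRNA. CYP51A1, the lanosterol demethylase, had 60.3, 42.1 and 52.9 CPM in the MDH2 IP against 93.2, 71.4 and 102 in the SMI. It was lower in every MDH2 IP library and fell by 0.78 ± 0.19 on the log2 scale (adjusted p = 0.0196). Over all 13923 genes tested, 8.49% were higher and 10.5% lower, and the median log2 fold change of the members was 0.14 beside 0.01 for all genes.

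The other 5 mRNAs spanned a log2 fold change of -0.13 to 0.56. FDPS, which makes farnesyl diphosphate, had 251, 159 and 221 CPM in the MDH2 IP against 160, 126 and 143 in the SMI, with one library of each group out of order (0.56 ± 0.19, adjusted p = 0.0652). SQLE, the squalene epoxidase, had 80.9, 78.6 and 84.9 CPM against 77.0, 77.8 and 72.5. These libraries did not overlap but were close together (0.11 ± 0.13, adjusted p = 0.615). FDFT1, the squalene synthase, averaged 111 ± 31.7 CPM (SD) in the MDH2 IP and 97.9 ± 18.1 in the SMI. HMGCS1, the synthase at the head of the pathway, averaged 234 ± 62.9 and 256 ± 75.6. DHCR7, the last reductase, averaged 196 ± 27.4 and 206 ± 37.5. In FDFT1, HMGCS1 and DHCR7 the libraries of both groups overlapped.

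**Figure D1:**
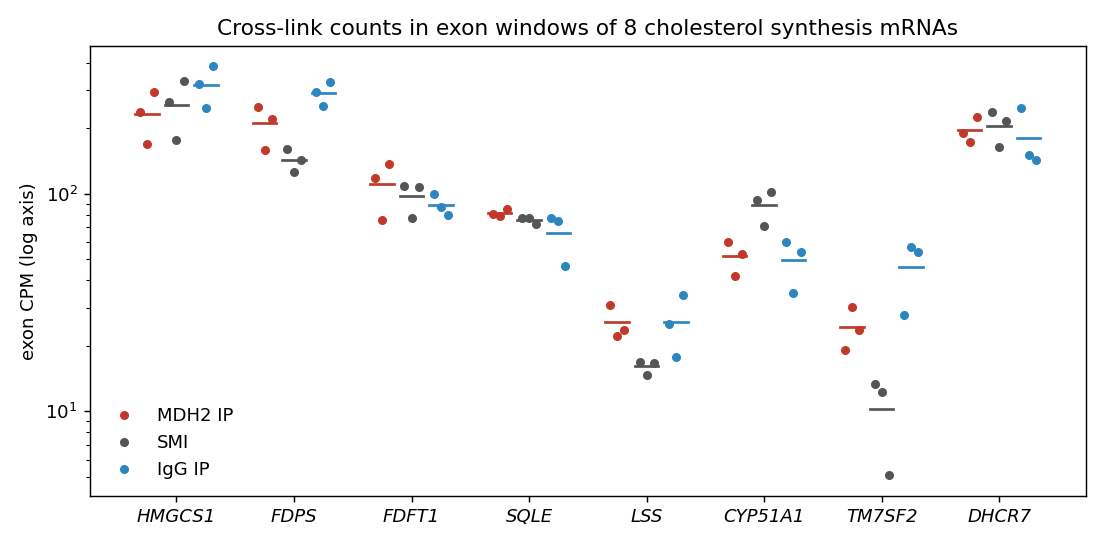
Exon CPM (log axis) of each member in the 9 libraries, with points for libraries and a line for the mean of each group of 3. The MDH2 IP points of TM7SF2 and LSS lie above and those of CYP51A1 below all SMI points, while the IgG IP points of TM7SF2 and FDPS lie above the SMI as well.

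Each of the 3 calls at gene level was lost when certain single libraries were left out, while its log2 fold change kept its sign. The TM7SF2 call was lost without MDH2 IP replicate 1 (log2 fold change 1.41, adjusted p = 0.0550), without MDH2 IP replicate 2 (1.07, adjusted p = 0.0751) and without SMI replicate 1 (1.47, adjusted p = 0.0608). The LSS call was lost without MDH2 IP replicate 1 (0.52, adjusted p = 0.145) and without SMI replicates 1 (0.69, adjusted p = 0.107), 2 (0.59, adjusted p = 0.105) or 3 (0.67, adjusted p = 0.0738). The CYP51A1 call was lost without MDH2 IP replicate 2 (-0.65, adjusted p = 0.0580) and without SMI replicates 1 (-0.762, adjusted p = 0.0808) or 3 (-0.69, adjusted p = 0.0506). FDPS passed without MDH2 IP replicate 2 (0.73, adjusted p = 0.0226) and by DESeq2 (0.56, adjusted p = 0.0368). It also passed with the weaker count filter (0.57, adjusted p = 0.0133) and with total counts as library size (0.98, adjusted p = 0.00246). The same held with exon and intron windows together (0.59, adjusted p = 0.0248). With the replicate number as a block FDPS passed at 0.54 (adjusted p = 2.71e-05), where 2966 of 13923 genes were higher and 2834 lower. In a fit of all 9 libraries LSS did not pass (0.67, adjusted p = 0.0843). With total counts as library size CYP51A1 did not (-0.35, adjusted p = 0.143), where the median of all genes moved by 0.43. With exon and intron windows together neither LSS (0.32, adjusted p = 0.122) nor CYP51A1 (-0.49, adjusted p = 0.0517) passed. Of 51 CYP51A1 exon windows with at least 30 counts, 34 had the very same counts in LRRD1, a gene that overlaps it, so that these counts cannot be assigned to 1 of the genes. FDPS and CYP51A1 also have pseudogene copies, and reads with up to 10 alignments were kept.

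The IgG IP differed from the SMI in FDPS, TM7SF2 and CYP51A1. FDPS had 292, 253 and 327 exon CPM in the IgG IP, above all SMI and all MDH2 IP libraries (IgG IP against SMI 1.06 ± 0.20, adjusted p = 0.00389). TM7SF2 had 27.7, 57.1 and 54.1 CPM in the IgG IP, all above the SMI (2.19 ± 0.39, adjusted p = 0.00297). CYP51A1 had 59.7, 34.8 and 54.1 CPM, all below the SMI, and fell by 0.80 ± 0.24 on the log2 scale (adjusted p = 0.0450). That call was lost without SMI replicates 1 (-0.81, adjusted p = 0.149) or 3 (-0.74, adjusted p = 0.116) and without IgG IP replicates 2 (-0.59, adjusted p = 0.118) or 3 (-0.855, adjusted p = 0.0624). LSS had 25.3, 17.8 and 34.4 CPM in the IgG IP, above the SMI in every library (0.70 ± 0.29, adjusted p = 0.126). With 2 of the 8 higher and 1 lower, the members stood beside 9.59% higher and 5.98% lower of 12788 genes tested.

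Set directly against the IgG IP, no member differed in exon counts by the main test. None of the 8 passed edgeR's test, 1 was below an unadjusted p of 0.05 (TM7SF2) and DESeq2 also called 0. Of all 12573 genes 0.31% were higher and 1.77% lower in the MDH2 IP. The log2 fold changes lay between -0.90 in TM7SF2 (± 0.31, adjusted p = 0.169) and 0.31 in FDFT1, with a median of 0.03 beside 0.04 for all genes. LSS was at 0.01 ± 0.29 and CYP51A1 at 0.06 ± 0.25, so that the differences of these mRNAs from the SMI had no counterpart against the IgG IP that the test could detect. The comparisons share libraries, and their values are given side by side for that reason. With the replicate number as a block, TM7SF2 passed as lower in the MDH2 IP than in the IgG IP (-0.87, adjusted p = 0.0111). Of all 12573 genes 386 were then higher and 609 lower.

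**Figure D2:**
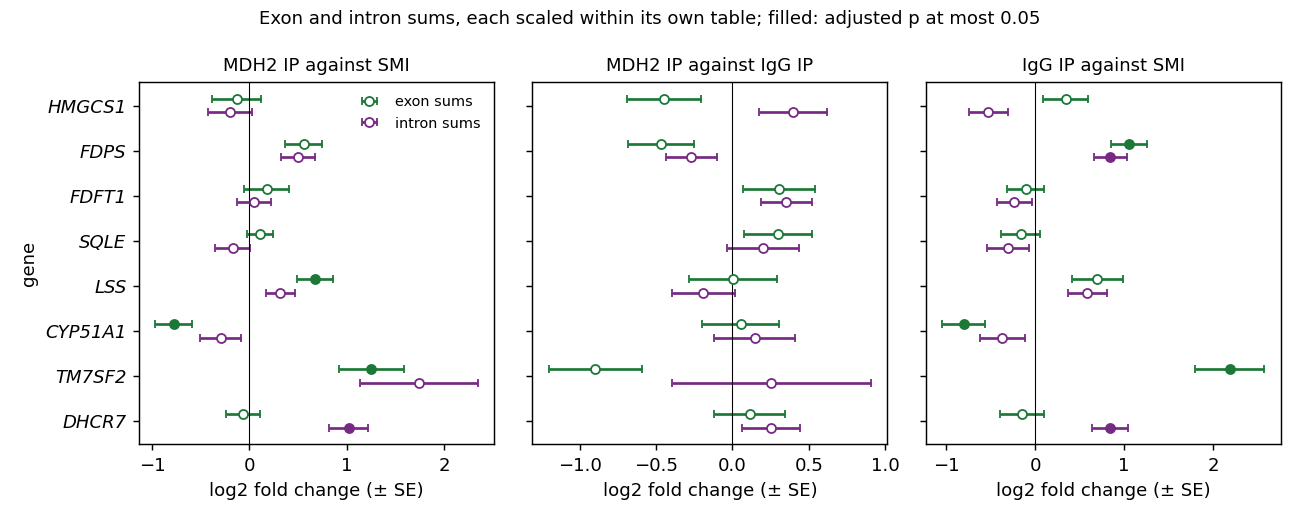
Log2 fold changes (± SE) of exon sums (green) and intron sums (purple) of the members in 3 comparisons, each table scaled to its own genes, with filled points at an adjusted p of at most 0.05. No point of MDH2 IP against IgG IP is filled, while TM7SF2, LSS and CYP51A1 exons and DHCR7 introns are filled in MDH2 IP against SMI.

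Within TM7SF2, the MDH2 IP signal was concentrated at the 5′ end. Window 1 of exon 1 held 43, 67 and 32 counts in the MDH2 IP, 0, 0 and 1 in the SMI and 0, 1 and 0 in the IgG IP. Window 2, which starts 20 nt further on, held 44, 67 and 33 counts, against 0, 1 and 1 in the SMI and 1, 0 and 0 in the IgG IP. All MDH2 IP libraries were far above all others, and the counts dropped to 4, 2 and 2 in window 3, which leaves the 20 bases in capitals above as the place of most counted sites. The ratio of MDH2 IP to SMI was 123 in window 1, with an exact 95% counting interval of 21.8 to 4900, and 62.5 in window 2, with an interval of 17.0 to 521. Over the IgG IP the ratios were 24.3 (4.29 to 966) and 24.6 (4.35 to 979). These intervals cover counting error only.

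Both windows passed the window test against both controls, but were tested only through their MDH2 IP counts. Their calls thus lend no support beyond the ratios above. A window counted as enriched when its log2 fold change reached 1 and its adjusted p was 0.05 or less. Among all windows, 1926 of 51108 (3.77%) were enriched over the SMI and 45 of 30427 (0.148%) over the IgG IP. Of the members' windows, 4 of 353 and 2 of 215 were. The adjusted p of windows 1 and 2 was 3.64e-07 and 3.78e-07 against the SMI and 0.0210 and 0.0130 against the IgG IP. By DESeq2 the windows passed against the SMI but not against the IgG IP (log2 fold changes of 4.39 and 4.42, adjusted p = 0.348 and 0.323), where edgeR gave 4.42 and 4.46. Neither call over the IgG IP held without IgG IP replicate 1 or 3. Window 1 was then at 3.43 (adjusted p = 0.490) and 4.07 (adjusted p = 0.143), and window 2 at 7.97 (adjusted p = 0.0776) and 4.12 (adjusted p = 0.0978). Window 2 was also lost without IgG IP replicate 2 (4.09, adjusted p = 0.173). Without any 1 MDH2 IP library these windows had fewer than 3 libraries with 10 counts and were not tested. Window 1 overlaps the last 18 nt of the neighbouring gene VPS51, and window 2 overlaps none of it.

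The rest of TM7SF2 behaved differently from its 5′ end. Windows 1 to 3 held 41.7% ± 5.44 (SD, n = 3) of the exon counts in the MDH2 IP, 2.28% ± 1.68 in the SMI and 1.40% ± 1.45 in the IgG IP. When they were left out, a choice made after the values were seen, TM7SF2 no longer passed against the SMI (log2 fold change 0.48 ± 0.34, adjusted p = 0.348). It was then lower in the MDH2 IP than in the IgG IP (-1.68 ± 0.31, adjusted p = 0.0173). These windows were picked for their MDH2 IP counts, so that leaving them out had to lower the MDH2 IP. The p-values without them thus lend no support. Exon 1 as counted joins overlapping exons of several transcripts, and its windows start up to 1800 nt from its 5′ end. The IgG IP counts were spread over this exon, and its sum in the IgG IP, 19.5, 36.3 and 37.5 CPM, was near that of the MDH2 IP, 19.2, 35.2 and 24.9 CPM.

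**Figure D3:**
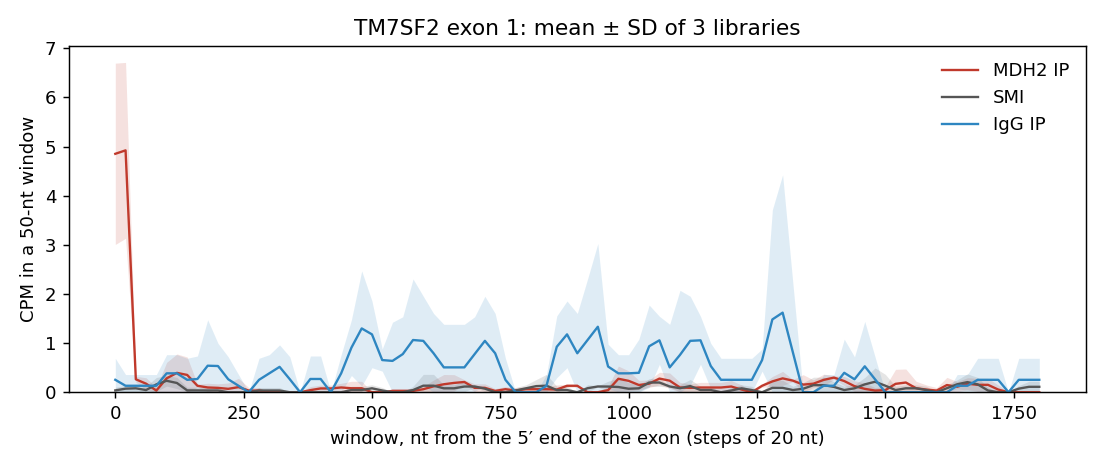
CPM in 50-nt windows along TM7SF2 exon 1, by distance from its 5′ end in steps of 20 nt, with lines for the mean and bands for the SD of 3 libraries. The MDH2 IP reaches 4.85 and 4.92 CPM in windows 1 and 2 and stays low after them, while the IgG IP is spread over the exon.

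In HMGCS1, the signal that stood out belonged to the IgG IP. Window 84 of exon 12 held 46, 20 and 44 counts in the IgG IP, 71, 32 and 52 in the MDH2 IP and 29, 16 and 42 in the SMI. After scaling these were 18.2, 15.2 and 35.6 CPM in the IgG IP, 5.79, 3.32 and 6.66 in the MDH2 IP and 3.87, 1.71 and 4.72 in the SMI. Each IgG IP library was above each of the other libraries, while the MDH2 IP and SMI overlapped. The window was enriched in the IgG IP over the SMI (log2 fold change 3.10 ± 0.34, adjusted p = 6.63e-14) but not in the MDH2 IP over the SMI (0.63 ± 0.34, adjusted p = 0.797). Windows 80 to 85 were all enriched in the IgG IP, with log2 fold changes of 2.56 to 3.36, and window 80 was not without SMI replicates 1 (2.19, adjusted p = 0.0739) or 2 (1.69, adjusted p = 0.0603). Windows 80 to 86 held 28.2% ± 6.32 of the exon counts of HMGCS1 in the IgG IP, 9.10% ± 0.92 in the MDH2 IP and 4.80% ± 1.33 in the SMI. Without them the exon sums of the IgG IP and SMI gave -0.07 ± 0.24 on the log2 scale, against 0.34 ± 0.25 with them. These windows were likewise picked after the values were seen, for their IgG IP counts, so that a fall had to follow.

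**Figure D4:**
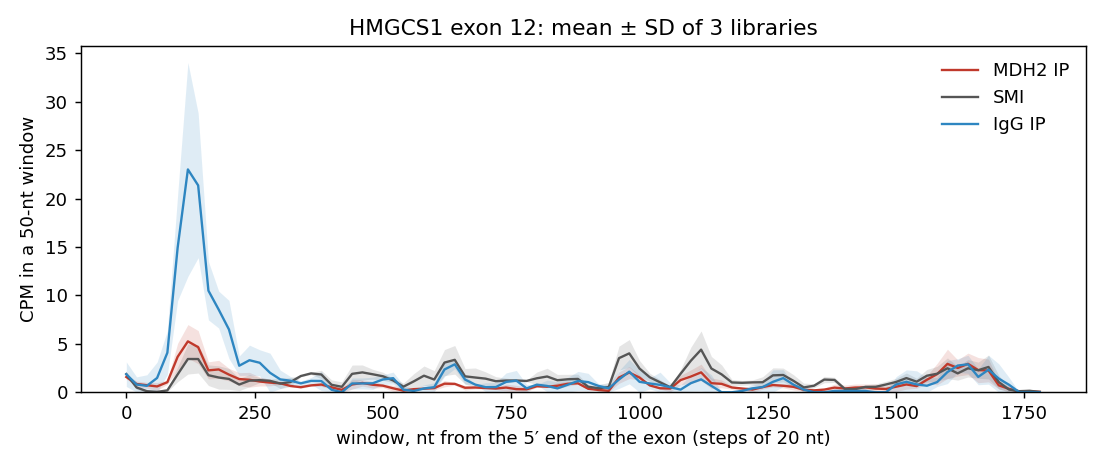
CPM in 50-nt windows along HMGCS1 exon 12, by distance from its 5′ end in steps of 20 nt, with lines for the mean and bands for the SD of 3 libraries. A peak of 23.01 CPM in the IgG IP stands 120 nt into the exon, where the MDH2 IP is at 5.26 CPM and the SMI at 3.43.

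The other windows of the IgG IP lay in HMGCS1 and FDPS. In all, 12 of 198 member windows were enriched in the IgG IP over the SMI, beside 1682 of 26669 (6.31%) over all genes. Windows 233 and 234 of HMGCS1 exon 9 had log2 fold changes of 1.40 and 1.499. The first lost its call without 5 of the 6 libraries and the second without each of the 6 (adjusted p of up to 0.590 and 0.502, both without SMI replicate 1). In FDPS the enriched windows were 176 and 177 of exon 3, 481 of exon 5 and 229 of intron 3. Window 481 held 10, 4 and 10 counts in the IgG IP, 3, 6 and 10 in the SMI and 23, 10 and 12 in the MDH2 IP, which was 2.99 ± 0.49 on the log2 scale (adjusted p = 1.08e-07), and window 229 was at 2.26 ± 0.48. Window 481 was too low to be tested without SMI replicate 3, IgG IP replicate 1 or IgG IP replicate 3. Windows 176 and 177 were at 1.73 and 1.94 and lost their calls without any of the SMI libraries and without IgG IP replicate 1, with adjusted p-values of up to 1.0 and 0.805.

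In the MDH2 IP, the remaining enriched windows were 1 in SQLE and 1 in FDPS, and neither was enriched against the IgG IP. Window 3 of SQLE exon 1, near the 5′ end of the gene, held 17, 23 and 11 counts in the MDH2 IP, 6, 4 and 3 in the SMI and 3, 1 and 1 in the IgG IP. The MDH2 IP libraries were above the SMI in CPM (1.75 ± 0.46, adjusted p = 0.0202), and the call was lost without SMI replicates 2 (1.60, adjusted p = 0.0788) or 3 (1.46, adjusted p = 0.0925). Window 558 of FDPS intron 6, whose start is printed above, held 27, 16 and 19 counts in the MDH2 IP, 6, 2 and 8 in the SMI and 8, 3 and 4 in the IgG IP. It was at 1.73 ± 0.44 against the SMI (adjusted p = 0.0314) and was lost without SMI replicates 1 (1.85, adjusted p = 0.129) or 2 (1.26, adjusted p = 0.189). In CPM its IgG IP libraries, 3.17, 2.28 and 3.24, were above the SMI and overlapped the MDH2 IP, 2.20, 1.66 and 2.43. By DESeq2 neither passed (adjusted p = 0.102 in SQLE and 0.138 in FDPS). Both windows were tested only through their MDH2 IP counts, since without any 1 of these libraries they were no longer tested. Their calls thus lend no support beyond the counts given.

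The windows with the most counts in the remaining exons were not called enriched in the MDH2 IP. The window test is one-sided and cannot call a window lower. The highest exon windows of CYP51A1, DHCR7, FDFT1 and FDPS, by mean CPM over the MDH2 IP and SMI, lay in exons 3, 3, 12 and 4. Their log2 fold changes against the SMI were 0.05, 0.42, -0.14 and 0.32, each with an adjusted p of 1.0. Window 38 of SQLE exon 1 was at 0.30 ± 0.39. The highest LSS window, in exon 3, held 21, 9 and 4 counts in the MDH2 IP and 5, 9 and 4 in the SMI and was too low to be tested.

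Summed over each exon and intron, 11 of 110 member features were higher and 6 lower in the MDH2 IP than in the SMI, beside 9.23% and 11.9% of 122977 features of all genes. In this table exons and introns share a scale. The 65 exons of the members had a median log2 fold change of 0.32 and all 58684 exons 0.47, while the 45 introns of the members were at -0.15 and all introns at -0.54. Of the member exons 9 were higher and 1 lower, which is 13.8% and 1.54%, near the 13.6% and 2.89% of all exons.

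The exons that rose stood mostly at the 5′ end of the mRNAs. Of the 7 members with a tested count in the exon of the lowest number listed, 6 rose there, against 3 of 50 exons further on and 0 of the 8 exons listed last. Of these 8, LSS exon 4 is not the end of its mRNA. Protein-coding genes as a whole showed the same order, with 32.9% of such opening exons, 11.6% of the exons between and 11.6% of the exons listed last higher, so that this was not particular to the members. TM7SF2 exon 1 was at 1.95 ± 0.35 (adjusted p = 0.00187). LSS exon 1 had 14.1, 13.0 and 14.5 CPM in the MDH2 IP and 4.59, 3.84 and 5.47 in the SMI (1.46 ± 0.28, adjusted p = 0.00240). DHCR7 exon 2, the opening exon listed, had 16.6, 20.2 and 21.8 CPM against 10.7, 6.91 and 9.15 (1.00 ± 0.26, adjusted p = 0.0130). FDFT1 exon 3, likewise the opening exon listed, had 23.2, 21.6 and 30.0 CPM against 12.9, 10.4 and 12.8 (0.92 ± 0.24, adjusted p = 0.0135). SQLE exon 1 had 59.9, 72.4 and 72.2 CPM against 38.5, 41.6 and 33.6 (0.72 ± 0.20, adjusted p = 0.0181), and FDPS exon 1 had 102, 75.6 and 104 CPM against 52.9, 51.3 and 48.8 (0.76 ± 0.20, adjusted p = 0.0140). In each of these exons the 3 MDH2 IP libraries were above the 3 SMI libraries. HMGCS1 exon 1 was at 1.06 but did not pass (adjusted p = 0.0961), and exon 1 of CYP51A1 was too low to be tested.

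**Figure D5:**
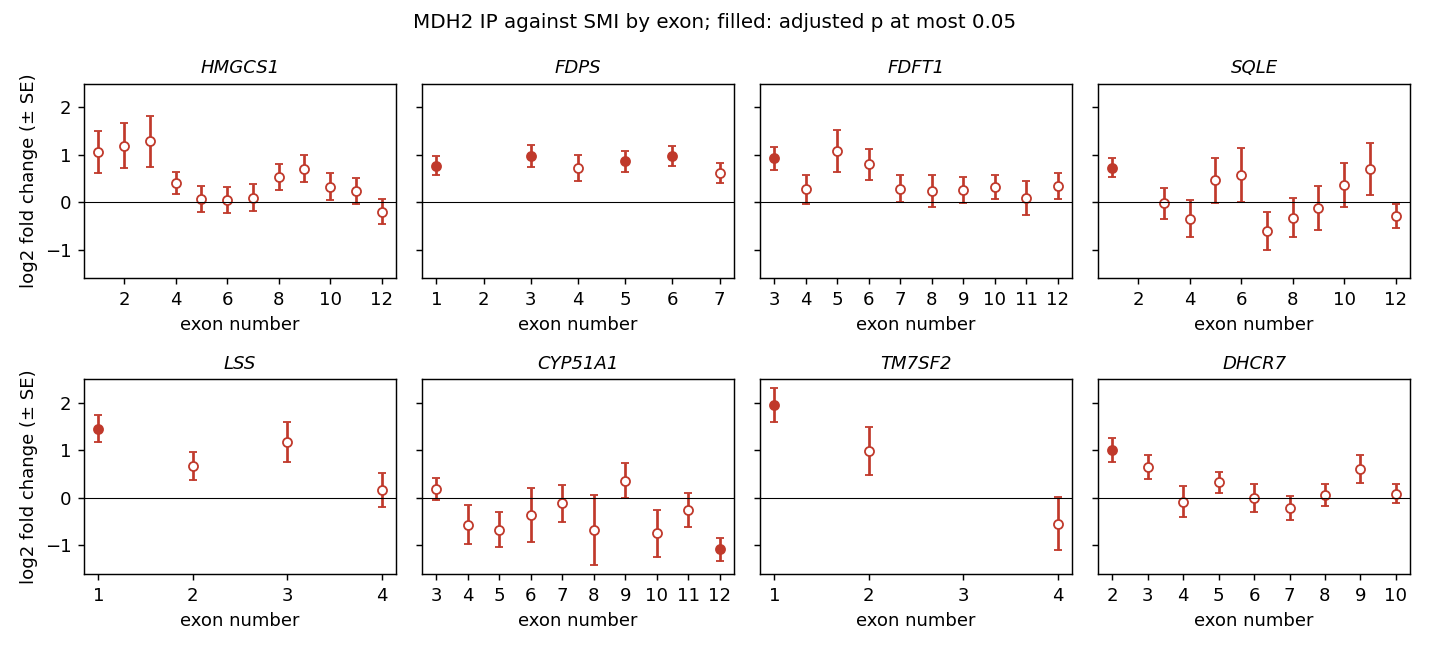
Log2 fold change (± SE) of each tested exon, MDH2 IP against SMI, with the exon number from 5′ to 3′ on the horizontal axis and filled points at an adjusted p of at most 0.05. The opening exons of TM7SF2, LSS, DHCR7, FDFT1, FDPS and SQLE are filled above 0, and the last exon of CYP51A1 is filled below 0.

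In FDPS 4 of the 6 tested exons rose, exons 1, 3, 5 and 6, and the log2 fold changes of all 6 lay between 0.61 and 0.97. All tested exons of FDFT1 (10) and LSS (4) were above 0 as well, with 1 called in each. Exon 6 had 33.3, 29.5 and 32.7 CPM in the MDH2 IP, 15.7, 13.8 and 15.3 in the SMI and 15.2, 10.6 and 13.1 in the IgG IP. It was above both controls in every library (0.97 ± 0.22, adjusted p = 0.00594 against the SMI, and 1.19 ± 0.29, adjusted p = 0.0199 against the IgG IP). Exons 1, 3 and 5 were also higher in the IgG IP than in the SMI, by 0.82, 1.61 and 0.98, of which the calls of exons 1 and 5 were lost without any 1 of the SMI libraries. Exon 6 was the only FDPS exon called against the IgG IP, and there it was lost without MDH2 IP replicate 1 (1.31, adjusted p = 0.0645) or IgG IP replicate 2 (1.02, adjusted p = 0.0586). Exons 3 and 6 remained called against the SMI without any 1 library, while exon 1 was lost without SMI replicate 1 (0.80, adjusted p = 0.0521) and exon 5 without MDH2 IP replicate 1 (0.70, adjusted p = 0.0733) or SMI replicate 2 (0.72, adjusted p = 0.0597).

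CYP51A1 was lower at its 3′ end. Its exon 12, the last, had 29.04, 16.9 and 24.0 CPM in the MDH2 IP, 44.7, 37.2 and 54.7 in the SMI and 15.6, 12.3 and 17.3 in the IgG IP. The SMI was above both IPs in every library, and the MDH2 IP fell by 1.08 ± 0.24 on the log2 scale (adjusted p = 0.00620) and the IgG IP by 1.45 ± 0.27 (adjusted p = 0.00138). Of its 10 tested exons 8 were below 0, and exon 12 was the only 1 that passed against the SMI, a call that held without each library in turn.

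Of the exon calls against the SMI, those of TM7SF2, LSS and FDFT1 also held without each library in turn. In the fit of all 9 libraries 8 of the 10 exon calls remained, and FDFT1 exon 3 (0.92, adjusted p = 0.0627) and SQLE exon 1 (0.72, adjusted p = 0.05996) did not. DHCR7 exon 2 was lost without SMI replicate 2 (0.82, adjusted p = 0.0522), and SQLE exon 1 without SMI replicates 1 (0.76, adjusted p = 0.0636) or 3 (0.65, adjusted p = 0.0584). When the scaling factors of the exon sums were used, an alternative added after the values were seen, the median over all features moved by -0.26 and 4 of the 10 exon calls remained: TM7SF2 exon 1, LSS exon 1, FDPS exon 6 and CYP51A1 exon 12.

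Compared with the IgG IP, 5 of 97 member features were higher and 0 lower by edgeR, beside 4.33% and 5.34% of 85040 features. Besides FDPS exon 6 these were SQLE exons 1 and 10, FDFT1 exon 10 and HMGCS1 intron 5. SQLE exon 1 had 42.1, 39.1 and 20.2 CPM in the IgG IP, below every MDH2 IP library (0.90 ± 0.28, adjusted p = 0.0491). FDFT1 exon 10 had 17.1, 11.1 and 15.5 CPM in the MDH2 IP and 7.43, 1.12 and 2.98 in the IgG IP (1.72 ± 0.49, adjusted p = 0.0358). SQLE exon 10 held 27, 24 and 10 counts in the MDH2 IP, 14, 17 and 21 in the SMI and 0 in each IgG IP library. Taking 3 counts over the group for the IgG IP, it was at least 5.71-fold higher in the MDH2 IP and at least 4.06-fold higher in the SMI. CYP51A1 exon 10 was likewise at 0 in the IgG IP and at least 4.45-fold higher in the SMI. Both exons were tested against the IgG IP only through the counts of the other group, so that their calls lend no support beyond these bounds. HMGCS1 intron 5 had 3.54, 2.79 and 2.38 CPM in the IgG IP, 11.03, 8.23 and 17.4 in the MDH2 IP and 12.8, 12.3 and 12.7 in the SMI, and was lower in the IgG IP than in both. None of these 5 calls held without each of the 6 libraries, and with MDH2 IP replicate 1 left out 0 remained (edgeR, adjusted p between 0.0541 and 0.108 for the 4 that were still tested). With the scaling of the exon sums, under which the median over all features moved by -0.62, SQLE exon 10 alone of the 5 remained. In 14 of 101 features the IgG IP differed from the SMI, 9 higher and 5 lower, beside 8.26% and 5.45% of 91628 features. TM7SF2 exon 1 was among them (2.45 ± 0.40), as was LSS intron 3 (2.41 ± 0.49).

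Intron sums were scaled to the introns of all genes. An intron window can also hold counts of another gene's exon, as in LRRD1, where windows of intron 7 had the counts of CYP51A1 exon 3. On that scale, DHCR7 rose in the MDH2 IP: it had 75.4, 74.6 and 103 intron CPM, against 40.5, 33.0 and 51.4 in the SMI and 66.9, 74.9 and 79.3 in the IgG IP. Both IPs were above the SMI in every library (MDH2 IP 1.02 ± 0.20, adjusted p = 0.00550, and IgG IP 0.84 ± 0.21, adjusted p = 0.0115). It was the only member of 8 called, beside 18.1% higher and 14.5% lower of 14050 genes. TM7SF2 introns, on few counts (47 in the MDH2 IP and 21 in the SMI), were just outside the threshold (1.74 ± 0.61, adjusted p = 0.0525). So were FDPS introns, with 183, 164 and 141 CPM in the MDH2 IP and 143, 91.3 and 112 in the SMI (0.50 ± 0.18, adjusted p = 0.0551). FDPS introns passed with 10 counts in all 6 libraries, the weaker count filter, the fit of all 9 libraries and non-overlapping windows (0.42 to 0.59, adjusted p of 0.0332 to 0.0459). They also passed without MDH2 IP replicate 3 or SMI replicate 1 (0.61 and 0.67). Relative to the exon sums, however, the introns of all genes were lower in the MDH2 IP, and with the scaling of the exon sums the median over all genes moved by -0.67 and DHCR7 was at 0.35 (adjusted p = 0.287). On that scaling HMGCS1, FDFT1, SQLE and CYP51A1 introns, 4 of 8, were lower than in the SMI, beside 5928 of 14050 over all genes. Compared with the IgG IP, 0 of 8 intron sums passed by edgeR and by DESeq2, with 0 below an unadjusted p of 0.05. Of 12847 genes 1.75% were higher and 4.14% lower by edgeR. With the exon scaling, under which the median moved by -1.07, 6 of 8 were lower, beside 7148 of 12847 over all genes. In the IgG IP against the SMI, 2 of 7 rose, DHCR7 and FDPS (0.85 ± 0.19, adjusted p = 0.00718), beside 18.5% higher and 12.6% lower of 12996 genes. The DHCR7 call in the IgG IP was lost without SMI replicate 1 (0.80, adjusted p = 0.0578).

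Single introns moved in both directions between the MDH2 IP and the SMI. FDPS intron 6, which starts with the bases printed above, had 28.5, 18.3 and 27.6 CPM in the MDH2 IP, 10.1, 6.25 and 10.5 in the SMI and 42.5, 34.0 and 45.2 in the IgG IP. It was higher in both IPs than in the SMI, and the IgG IP was the highest of all (MDH2 IP 1.35 ± 0.28, IgG IP 2.32 ± 0.29). DHCR7 intron 8 was at 1.12 ± 0.36. Introns 4 and 11 of CYP51A1, 8 of FDFT1, 8 of SQLE and 3 of HMGCS1 were lower in the MDH2 IP, with log2 fold changes between -1.53 and -1.10. Of the 45 member introns tested 4.44% were higher and 11.1% lower, beside 5.2% and 20.1% of all 64293 introns. Lower introns were thus not particular to the members. Of the 7 intron calls, those of FDPS intron 6 and CYP51A1 intron 11 held without each library in turn. The others had adjusted p-values of at most 0.127 without their most influential library.

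A larger part of the members' counts lay in exons in the MDH2 IP. The exon share of all counts of the 8 genes was 71.2%, 71.6% and 71.9% in the MDH2 IP, 63.3%, 65.9% and 62.9% in the SMI and 64.3%, 57.2% and 54.8% in the IgG IP. Every MDH2 IP library was above every other library, by 7.54 percentage points over the SMI and 12.8 over the IgG IP on average (exact two-sided permutation p = 0.1 for both, the smallest that 3 against 3 can give). Over all genes the exon share was 56.2% ± 3.31 in the MDH2 IP, 46.5% ± 3.01 in the SMI and 34.9% ± 3.75 in the IgG IP, so the order was that of the whole data set. HMGCS1, FDPS, FDFT1, SQLE and LSS showed it without overlap against the SMI, with differences of 10.5 to 15.4 points. TM7SF2 differed by 0.49 points (exact permutation p = 0.6), and DHCR7 went the other way, from 82.1% ± 2.40 in the SMI to 77.5% ± 2.03 (exact permutation p = 0.2). In all, 51 share tests were computed over 17 shares and 3 pairs of groups, and with a smallest p of 0.1 none can pass after adjustment.

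Summed over members, last exons, which hold most of the 3′ UTR, took a larger part of exon counts in the SMI than in either IP. Over the 7 members other than LSS, the last exon listed held 29.1%, 27.7% and 32.0% of exon counts in the MDH2 IP, 39.6%, 35.6% and 41.7% in the SMI and 30.3%, 29.9% and 32.9% in the IgG IP. The SMI was above both IPs in every library (difference of -9.32 points for the MDH2 IP and -7.94 for the IgG IP, exact permutation p = 0.1 each). CYP51A1 went from 51.4% ± 2.31 in the SMI to 34.5% ± 5.42 in the MDH2 IP, HMGCS1 from 47.8% ± 2.86 to 37.9% ± 3.40, and SQLE from 15.6% ± 1.89 to 9.87% ± 0.70, all without overlap. TM7SF2 went from 23.2% ± 12.4 to 4.72% ± 1.14, on few counts. FDPS, FDFT1 and DHCR7 overlapped. HMGCS1 stood at 53.6% ± 5.62 in the IgG IP, where its peak lies in the last exon. Of LSS only exons 1 to 4 were analysed here. Over protein-coding genes 9.67% of the exons listed last were lower in the MDH2 IP than in the SMI, beside 0.81% of the exons between. Lower last exons were thus not particular to the members.

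Of the other 13 enzymes of the pathway, none had raised exon sums in the MDH2 IP by edgeR. Against the SMI, 0 of 13 were higher and 3 were lower, beside 8.49% and 10.5% of all genes, with 2 above and 3 below at an unadjusted p of 0.05 and 1 higher and 3 lower by DESeq2. The 3 were LBR, a sterol reductase of the nuclear envelope (-0.78 ± 0.23, adjusted p = 0.0380), MSMO1, a methyl sterol oxidase (-0.73 ± 0.23, adjusted p = 0.0479), and SC5D, a sterol desaturase (-0.72 ± 0.18, adjusted p = 0.0204). The median of the list was -0.09. MVD, the mevalonate diphosphate decarboxylase, was at 0.92 ± 0.30 in exons (adjusted p = 0.0610). Of the intron sums 2 of 13 rose, beside 18.1% of all genes, MVD (1.21 ± 0.29, adjusted p = 0.0129) and EBP, a sterol isomerase (0.71 ± 0.24, adjusted p = 0.0450). In the IgG IP against the SMI, MVD introns rose as well (1.32 ± 0.30, adjusted p = 0.00790), while EBP introns did not (0.05 ± 0.25). In exon sums none of the 13 differed from the IgG IP: 0 of 13 passed by edgeR and DESeq2, and 0 were below an unadjusted p of 0.05. Of all genes 0.31% were higher and 1.77% lower there by edgeR.

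Among 9 genes of the SREBP pathway, 2 were higher and 2 lower in exon sums than in the SMI, beside 8.49% and 10.5% of all genes. SREBF1, the SREBP gene best known for fatty acid synthesis, rose by 0.86 ± 0.13 (adjusted p = 0.00252). It was also the only 1 of the 9 called higher in the IgG IP than in the SMI (1.21 ± 0.18, adjusted p = 0.001). Every MDH2 IP library of SREBF1 was below every IgG IP library. MBTPS2, a protease that releases SREBP, fell by 1.04 ± 0.17 (adjusted p = 0.00362) and INSIG1, which retains it with sterols, by 0.65 ± 0.20 (adjusted p = 0.0490). SREBF2, the SREBP gene of cholesterol synthesis, was just outside the threshold (0.44 ± 0.14, adjusted p = 0.0504). Relative to the IgG IP 0 of 9 exon sums passed by edgeR and DESeq2, with 1 below an unadjusted p of 0.05. By edgeR 0.31% of all genes were higher and 1.77% lower, so that 0 of 9 says little about the list.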

How the data were processed

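The authors trimmed the reads with cutadapt, aligned them with STAR to hg38, removed PCR duplicates by molecular identifiers and kept up to 10 alignments per read. They deposited whole-number counts of cross-link sites, not normalized, in 50-nt windows, each 20 nt further on than the last, along exons and introns of GENCODE v23, 1 column per replicate and 0 left unused. A site enters up to 3 windows, so that a sum over windows counts most sites more than once. Windows with 0 counts in every library are not listed. Gene names and positions came from GENCODE v44, to which 33751 of 34950 Ensembl identifiers matched. Windows were placed on GRCh38 in FDPS, TM7SF2 and HMGCS1, where the v44 exons gave the same window numbers. For the last exon of HMGCS1 several v44 ends exist. The end that gives 90 windows, the highest number listed there, was chosen, so that its match was set by this choice. SQLE and LSS also matched v44 but were not placed.

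Counts were summed per gene over exon or intron windows and per exon and intron. Both kinds of sum and the single windows went into edgeR 4.0.16 under R 4.3.3 (quasi-likelihood, TMM within each table, only the 2 groups compared, no block) where at least 3 of 6 libraries had 10 counts, with Benjamini-Hochberg adjustment over the whole table and calls at 0.05. Window p-values were one-sided for enrichment, and each was multiplied by how many tested windows overlapped, while other p-values were two-sided. SE were taken from the log2 fold change and its F statistic. Shares were compared with exact two-sided permutation tests. Counting intervals are exact 95% intervals, and a group at 0 was set to 3 counts. The members and lists were chosen with earlier results of these data known. The text names the members, their highest exon window, their called features and windows, and the called genes of 2 pathway lists, of which some are not reported here.

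On data simulated for MDH2 IP against SMI with 200 features raised 4-fold, 92.5% of exon sums (13558 genes, 18 false calls), 93% of intron sums (13684 genes, 10 false), 77.5% of single exons and introns (112673, 15 false) and 97% of windows (44738, 3 false) were recovered. No replicates were duplicates (chi-square per degree of freedom of at least 5.83). Other settings tried were DESeq2 1.42.0 (Wald test), its size factors, total counts, other count filters, all 9 libraries in 1 fit, a block for the replicate number, windows that do not overlap (1 in 3), exon and intron windows together, a log2 fold change of at least 2, the mean of the members' shares, and leaving out each library. Leaving out peak windows and the scaling of the exon sums were added after the data were seen. Tables and plots used Python 3.11.15, scipy 1.17.1 and matplotlib 3.10.9.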

Additional observations from a re-analysis of the deposited data

How the results depend on the processing

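Total counts as library size moved the median log2 fold change of exon sums over all genes by 0.43 (MDH2 IP against SMI), 0.74 (MDH2 IP against IgG IP) and -0.34 (IgG IP against SMI). With this shift, 5 members were then called in exon sums against the SMI and 4 against the IgG IP. Called member features came to 10 against the IgG IP, and member windows to 34 and 6 against the SMI and IgG IP. Over all genes 3988 of 13923 exon sums were higher and 656 lower against the SMI, and 4117 and 118 of 12573 against the IgG IP. Of all 85040 features 4885 were higher and 3656 lower against the IgG IP. Enriched windows came to 9736 of 51108 against the SMI and 2040 of 30427 against the IgG IP. Under total counts HMGCS1 (0.29) and DHCR7 (0.36) exons turned positive against the SMI, FDPS exons (0.28) turned positive and DHCR7 introns (-0.071) negative against the IgG IP. With exon and intron windows together DHCR7 was at 0.35 against the SMI and LSS at -0.28 against the IgG IP. LSS, near 0 against the IgG IP, was also negative by DESeq2 (-0.0152), with its size factors (-0.0145), in the fit of all 9 libraries (-0.0427) and with 1 in 3 windows (-0.0344), as was CYP51A1 with 1 in 3 windows (-0.0347). With the scaling of the exon sums 4 and 6 intron sums passed against the SMI and IgG IP, and 14 features against the IgG IP. FDPS introns (-0.19, SMI) and DHCR7 introns (-0.83, IgG IP) then turned negative. Without peak windows, which were picked from these same values, 1 member passed against the IgG IP.

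The replicate numbers were shared by the groups. Same-numbered libraries of different groups correlated in their deviations at -0.01 to 0.50, with 6 of 9 pairs over 0.1, and libraries were closest to their own number in 16 of 18 cases. The paper set part of the input aside as the SMI before the IP. The labels do not say whether equal numbers mark the same lysate. Equal numbers may thus mark matched libraries, and the main fits left this out by using no block for the number. With it as a block (replicate block), 1 exon sum passed against the IgG IP (TM7SF2, -0.87, adjusted p = 0.0111). FDPS exons (0.54) and introns (0.51) passed against the SMI. SQLE exon 10 and CYP51A1 exon 10 no longer differed from the IgG IP by the test (adjusted p of 0.0842 to 0.160). Of the members, 5, 1 and 4 intron sums passed in the 3 comparisons. So did 34 and 12 features against the SMI and IgG IP, and 10 windows against the SMI. Over all genes 3749 of 14050 intron sums were higher and 3703 lower against the SMI. Against the IgG IP 968 and 1402 of 12847 were, and in the IgG IP against the SMI 2809 and 2744 of 12996. Of all features 17535 of 122977 were higher and 20991 lower against the SMI, and 4221 and 5797 of 85040 against the IgG IP. Enriched windows against the SMI came to 3528 of 51108.

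Of counts called in the MDH2 IP against the SMI, intron sums came to 2 with DESeq2, with 10 counts in all 6 libraries, with the weaker filter and in the fit of all 9 libraries, and to 3 with 1 in 3 windows. Features came to 28 with 10 counts in all libraries, where over all genes 10630 of 63800 were higher and 12806 lower. They came to 26 with 1 in 3 windows, beside 10936 higher and 11334 lower of 54805. Windows came to 2 with DESeq2, with the weaker filter and at a log2 fold change of at least 2, and to 1 with 10 counts in all libraries. Against the IgG IP features came to 9 with DESeq2 and 1 in 3 windows, 13 with 10 counts in all libraries, 10 with the weaker filter and 12 in the fit of all 9 libraries, and windows to 0 with DESeq2 and with 10 counts in all libraries. In the IgG IP against the SMI windows came to 3 with 10 counts in all libraries and 29 with the weaker filter. Over all genes these were 411 of 1457 and 4206 of 79321. Stricter filters test fewer features, and otherwise the cause was not tested.

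Without 1 library in turn, exon sums called against the SMI ranged from 0 (without SMI replicate 1) to 3, intron sums from 1 to 2, features from 11 to 19 and windows from 0 to 4. Against the IgG IP features ranged from 0 to 11 and windows from 0 to 1. In the IgG IP against the SMI intron sums ranged from 1 to 3, features from 7 to 19 and windows from 7 to 10. Exon log2 fold changes ranged from -0.36 to 0.0605 in HMGCS1, -0.0033 to 0.39 in FDFT1 and -0.23 to 0.0279 in DHCR7 against the SMI, and from -0.20 to 0.24 in LSS and -0.15 to 0.21 in CYP51A1 against the IgG IP. The differences in exon share and last-exon share kept their direction under all alternatives run. The low counts of the IgG IP limit every comparison with it.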
